A study of Branchiostoma belcheri with 3 samples.

Results

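The microRNA profile of the intestine of Branchiostoma belcheri, an amphioxus (an invertebrate chordate that lives in marine sand), was compared with that of its gill. Of the 3 organs arrayed in the series, the comparison used 2, the intestine with 1 array and the gill with 1 array. Each RNA was a pool from 5 adults caught off Guangdong and kept in seawater on algae, with no treatment named. The labels give neither strain nor sex. With 1 array per tissue no difference could be tested, and array and tissue cannot be told apart. All 1686 miRNA probes of the array were compared, each printed as 2 spots, and their names fell into 667 families. A family here means all probes with the same miRNA number, with let-7 kept apart from miR-7. B. belcheri targets (prefix bbe) made up 93 of the probes and targets of the related Branchiostoma floridae (prefix bfl) another 167. The remaining 1426 were designed against tunicates, vertebrates, a hemichordate, a sea urchin and Xenoturbella, so a signal there can come from a related amphioxus sequence.

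MicroRNAs are short RNAs that guide Argonaute proteins to messenger RNAs and lower their translation or stability. Pairing is led by the seed, bases 2 to 8 from the 5′ end, so miRNAs with one seed can share targets. Many families are shared by bilaterian animals, and amphioxus also carries families described only in its own genus. The amphioxus gill is a ciliated filter-feeding pharynx, and the intestine is the digestive tube behind it.

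The sequences on which the comparison turned were read from the target column of the deposited array files, and capitals mark the seed. Targets at least 2-fold higher in the intestine after quantile normalisation included these, with bfl-miR-10b added because it differed from bfl-miR-10c. Without scaling between the arrays, bbe-miR-4856a-5p and bbe-miR-4857-5p did not reach 2-fold.
bfl-miR-31-5p: uGGCAAGAuguuggcauagcugu
bfl-miR-10c: uACCCUGUagauccggacuugu
bfl-miR-10b: aACCCUGUggauccgaucuugugu
spu-miR-252b: cUAAGUAGuagugccgcaggua
bbe-miR-4863-5p: aGACAACAucagaaugucccu
bbe-miR-4864-5p: aGGGAGAUcaccucaggcauac
bfl-miR-4862-5p: aCGCGUUUaugucugcgccugu
bbe-miR-4856a-5p: aCGCAGUGacgucagcgccucu
bbe-miR-4857-5p: aCGAUGUUuuugucugcuccaga
bbe-miR-4869-5p: aCGAUGUUgacuuccgcuccucu

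The next targets had lower signal in the intestine before any scaling between the arrays. After quantile normalisation bbe-miR-2076-5p was slightly higher there, and bfl-miR-2063 and dre-miR-141 were lower by less than 2-fold. The leading ones, from bfl-miR-92a to bbe-miR-2076-5p, carried one seed, AUUGCAC, under 5 family numbers.
bfl-miR-92a: uAUUGCACuugucccggccuuu
bfl-miR-92b-3p: cAUUGCACucgucccggccuga
dre-miR-25: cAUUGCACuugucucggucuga
bbe-miR-2059-5p: uAUUGCACuguuuugcuuuga
bfl-miR-2063: uAUUGCACuaauuugcuuuuga
bbe-miR-2076-5p: aAUUGCACuagagugauuuguu
bbe-miR-2063-3p: aAAAAGCAaaaaguugcaauau
bfl-miR-217: uACUGCAUcaggaacugauugga
dre-miR-7a: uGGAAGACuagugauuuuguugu
dre-miR-141: uAACACUGucugguaacgaugc
bfl-miR-4874-3p: cUGGCUGGuuggugcaaacagg

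A last set was above the main detection threshold in the gill and not in the intestine, apart from bfl-miR-34b-5p. That target is shown because it shares its seed with bbe-miR-34a-5p and differed from it.
bfl-miR-184-3p: uGGACGGAgaacugauaaggg
bfl-miR-281: uGUCAUGGaguugcucucuuuu
bbe-miR-2071-5p: aUUGUUACaccgcgccgcaa
bfl-miR-2071-3p: aUUGUUACaccgcgccgcaaaag
bbe-miR-34a-5p: uGGCAGUGuggauagcuggccgu
bfl-miR-34b-5p: aGGCAGUGaugucaguuuguugu

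Signal is given as density, the scanner's linear fluorescence intensity, averaged over the 2 spots of a probe, and an error after ± is the SD of those spots. It is a technical error within an array and does not cover animals or arrays, whose number limits the precision. The 304 spots without a probe averaged 115 ± 34.9 on the intestine array and 107 ± 10.6 on the gill array. A probe counted as detected above the blank mean plus 3 SDs, which was 220 on the intestine array and 139 on the gill array. The intestine threshold was raised by a few bright blank spots, the brightest at 477. A threshold from the median and the median absolute deviation of the blanks was 139 on the intestine array and 136 on the gill array. The spike-in controls averaged 5493 on the intestine array and 7393 on the gill array, and the 5S rRNA probes 2532 and 3497 in the same order of arrays.

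Fewer miRNA probes gave signal with intestinal RNA. Of all probes, 201 (11.9%) were detected in the intestine and 455 (27%) in the gill, in 71 and 176 families. Both arrays detected 197 probes in 69 families. The gill alone detected 258 (15.3%) in 107 families, and the intestine alone detected 4 (0.237%) in 2 families. Of the 258, only 124 would have passed the intestine threshold with their gill density, so the other 134 could not have counted as detected on the intestine array at the same density. With the threshold based on the median, the intestine count was 321 and the gill count 476. Of the 258 gill-only probes, 84 lay above that median-based threshold in the intestine. Among amphioxus targets 82 of 260 (31.5%) were detected in the intestine and 161 (61.9%) in the gill. Among targets of other species the counts were 119 of 1426 (8.35%) in the intestine and 294 (20.6%) in the gill. Fewer cells of a type and less RNA per cell cannot be told apart in such pooled tissue RNA.

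The probes detected on both arrays were also dimmer in the intestine, with a median density of 1163 against 5860.1 in the gill. How this overall gap is scaled sets the split of calls between directions. Differences are therefore given as log2 intestine minus gill after quantile normalisation of these arrays and, beside that, without scaling between them. A difference of at least 2-fold is an absolute log2 difference of 1 or more. Of the 197 shared probes, 80 (40.6%) were at least 2-fold higher in the intestine and 43 (21.8%) at least 2-fold lower after quantile normalisation, with a median difference of 0.47. Without scaling, 19 (9.64%) were higher and 122 (61.9%) lower, with a median of -1.62. The same call held under quantile normalisation and 7 other scalings, 8 in all, for 19 probes (9.64%) of 8 families that were higher and for 41 probes (20.8%) of 15 families that were lower. Of the 123 calls after quantile normalisation, 116 exceeded 2 spot SDs.

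**Figure D1:**
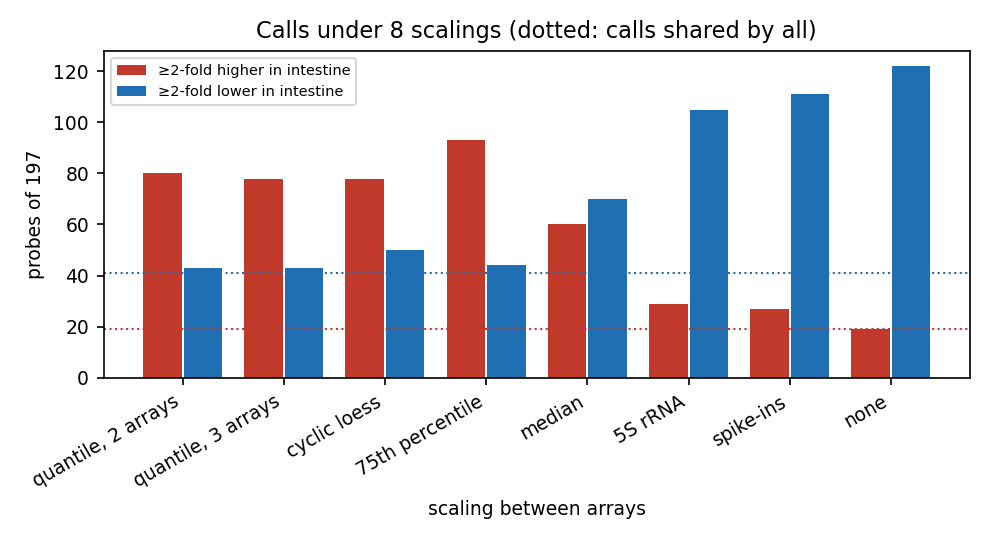
Number of the 197 probes detected on both arrays that were at least 2-fold higher (red) or lower (blue) in the intestine than in the gill, for each way of scaling the arrays; dotted lines mark the calls common to all 8. The higher count runs from 93 with the 75th percentile to 19 with no scaling, while 19 higher and 41 lower calls are common to all.

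Spots of a probe agreed closely for most probes, with a median coefficient of variation of 5.49% in the intestine and 5.23% in the gill. On at least one array, however, 12 of the 197 shared probes had spots more than 2-fold apart, 11 in the intestine and 2 in the gill, with 1 counted under both. Without these, 76 probes were higher and 38 lower after quantile normalisation, and 18 and 36 under all scalings, in 7 and 12 families. Of these probes 9 were called after quantile normalisation, and 6 of them are described with their families below. The others were dre-miR-22b, pma-let-7b-5p and pma-miR-4565. For dre-miR-22b, the only miR-22 probe among the calls common to all scalings, the intestinal spots were 282 and 6557, against 21601 and 22210 in the gill (-1.53). The intestinal spots were 10886 and 4989 for pma-let-7b-5p, higher by 1.21 on the log2 scale, and 168 and 440 for pma-miR-4565, which was also called higher.

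**Figure D2:**
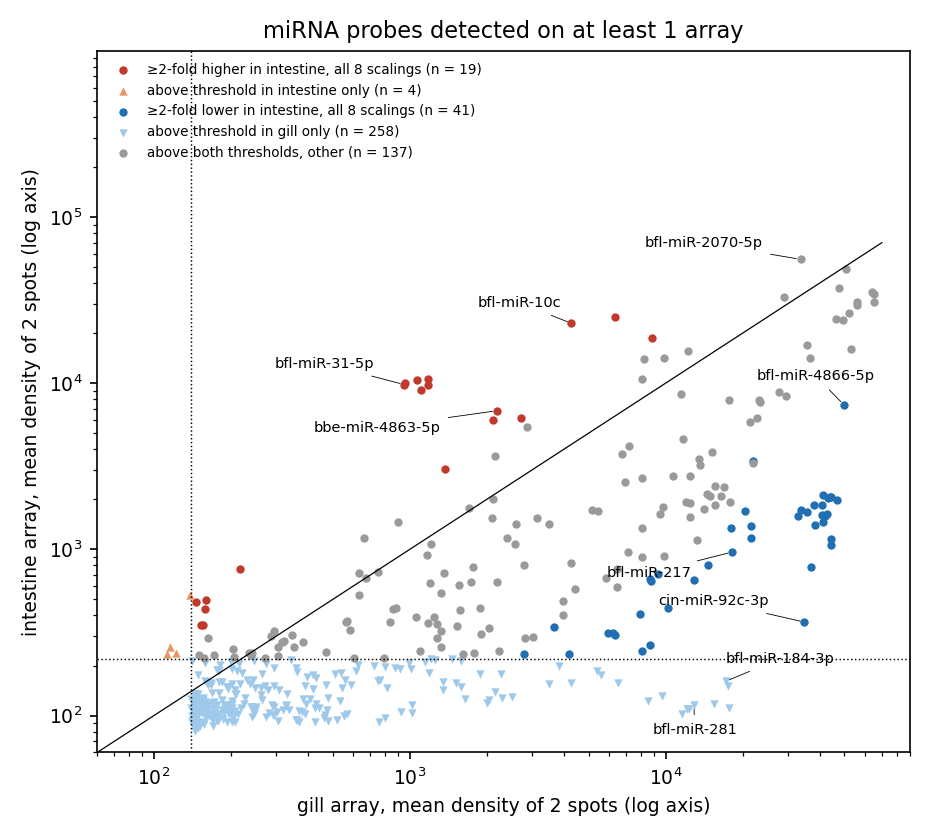
Mean density of each detected miRNA probe on the intestine array (vertical) against the gill array (horizontal), both on log axes; dotted lines are the detection thresholds and the solid line marks equal density. Most points lie below the line of equal density, bfl-miR-31-5p and bfl-miR-10c lie above it, and bfl-miR-281 and bfl-miR-184-3p lie under the intestine threshold.

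The miR-31 family had the largest difference in favour of the intestine. MiR-31 is an epithelial miRNA in vertebrates, studied among other places in the stem cells of the mouse intestine. Of its 11 probes 8 were detected, each on both arrays, and all 8 were higher under every scaling, with a median log2 difference of 5.32 (3.15 without scaling) against a median of 0.47 over all shared probes. The B. floridae target, bfl-miR-31-5p, had a density of 9809.8 ± 468 in the intestine and 951 ± 88.0 in the gill. It stood 26th among 1686 probes in the intestine and 195th in the gill, where rank 1 is the brightest. Its log2 difference was 5.49, or 3.42 unscaled. The sea squirt target csa-miR-31, whose 21 bases equal the first 21 of bfl-miR-31-5p, gave 10018 in the intestine and 958 in the gill. The lamprey target pma-miR-31 differs from bfl-miR-31-5p at 2 of 21 positions and was dimmer, with 766 in the intestine and 217 in the gill and a log2 difference of 3.72. The dimmest member, odi-miR-31, had 496 in the intestine and 159 in the gill and a difference of 3.29. Each of the 8 detected miR-31 probes was thus brighter in the intestine on the raw scale as well.

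MiR-10 lies in the Hox clusters of bilaterian animals. Of its 17 probes 10 were detected on both arrays, and 9 of them were at least 2-fold higher in the intestine, with a family median of 2.67 (0.46 unscaled). The strongest was bfl-miR-10c, with 22909 ± 266 in the intestine and 4281 ± 700 in the gill, ranks 14 and 116 and a log2 difference of 4.17 (2.44 unscaled). The zebrafish target dre-miR-10c, identical to it at 21 of 22 positions, gave 24943 in the intestine and 6362 in the gill and a difference of 3.89. Together with dre-miR-10a-5p (3.01) these were the 3 members called under every scaling. The exception to the direction was bfl-miR-10b, which has the same seed and shares 18 of 22 positions with bfl-miR-10c. It had 259 ± 10.3 in the intestine and 1327 ± 0.502 in the gill, a log2 difference of -0.11 (-2.45 unscaled). The brightest member, spu-miR-10, had 32972 in the intestine and 28981 in the gill (1.64, or 0.19 unscaled). After quantile normalisation the members thus ranged from about equal to clearly higher, while unscaled bfl-miR-10b was lower in the intestine. Of the other Hox-cluster families, miR-196 was detected by 1 of its 10 probes, in the gill only and with 157 there.

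MiR-252 is a bilaterian family that is missing from vertebrates. Its shared probes had low densities on both arrays. Density was 352 ± 5.14 in the intestine and 153 ± 1.32 in the gill for spu-miR-252b, and 350 ± 2.66 and 156 ± 2.72, in that order, for sko-miR-252b. Both differences, 2.83 and 2.79, were called under every scaling, although the gill values lay just above the gill threshold of 139. The rank of the family's brightest probe was 154 in the intestine and 397 in the gill.

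The 5p targets of several families numbered in the miR-4800s, each printed on this array as amphioxus targets only, were also brighter in the intestine. In bbe-miR-4863-5p the density was 6819.6 ± 273 in the intestine and 2183 ± 172 in the gill, with a log2 difference of 3.91 (1.66 unscaled). Its B. floridae counterpart bfl-miR-4863-5p had a difference of 3.75. In bfl-miR-4862-5p it was 3062 ± 498 in the intestine and 1374 ± 270.0 in the gill, a difference of 3.59 (1.19 unscaled). In bbe-miR-4869-5p it was 6159 ± 51.9 in the intestine and 2731 ± 160.4 in the gill, a difference of 3.45 (1.19 unscaled). For bbe-miR-4864-5p the values were 483 ± 98.3 in the intestine and 146 ± 10.8 in the gill, a difference of 3.30 (2.01 unscaled). All of these 5p targets were denser in the intestine on the raw scale and were called under every scaling. The 3p targets of miR-4864 went the other way and were detected in the gill only. Density was 151 in the intestine and 294 in the gill for bbe-miR-4864-3p, and 143 and 278 for bfl-miR-4864-3p. The dim bfl-miR-4863-3p was also gill-only, at 112 in the intestine and 190 in the gill.

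The B. floridae target bfl-miR-4864-5p, which differs from bbe-miR-4864-5p at 1 of 22 positions, had 532 ± 9.09 in the intestine and 138 ± 0.516 in the gill, just under the gill threshold. With bbe-miR-4857-3p, at 238 ± 29.4 in the intestine and 122 ± 0.368 in the gill, it made up the amphioxus targets detected in the intestine alone. The other intestine-only probes, cin-miR-4149-5p at 236 ± 161 and pma-miR-4590 at 258 ± 214, rested on 1 bright spot each. These probes were the only ones of their families detected, and they make up the 2 intestine-only families.

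MiR-4856 was represented by bbe-miR-4856a-5p, with 5443 in the intestine and 2872 in the gill, and by bfl-miR-4856b-5p, with 1454 in the intestine and 900.3 in the gill. Their log2 differences were 3.08 and 3.09 after quantile normalisation and 0.93 and 0.72 unscaled, so neither was called without scaling. For bfl-miR-4870 the density was 437 ± 300.0 in the intestine and 159 ± 33.1 in the gill, with a log2 difference of 2.96. Its intestinal spots, at 649 and 225, were more than 2-fold apart. Over all 153 probes numbered miR-4800 to miR-4899, which include hemichordate and sea urchin targets, 24 were detected in the intestine and 41 in the gill. Of the 22 on both arrays 14 were higher and 3 lower, with a median of 1.30 (-0.73 unscaled), and 6 and 3 were called under every scaling. Over all shared probes the shares were 40.6% higher and 21.8% lower after quantile normalisation, and 9.64% and 20.8% under every scaling.

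**Figure D3:**
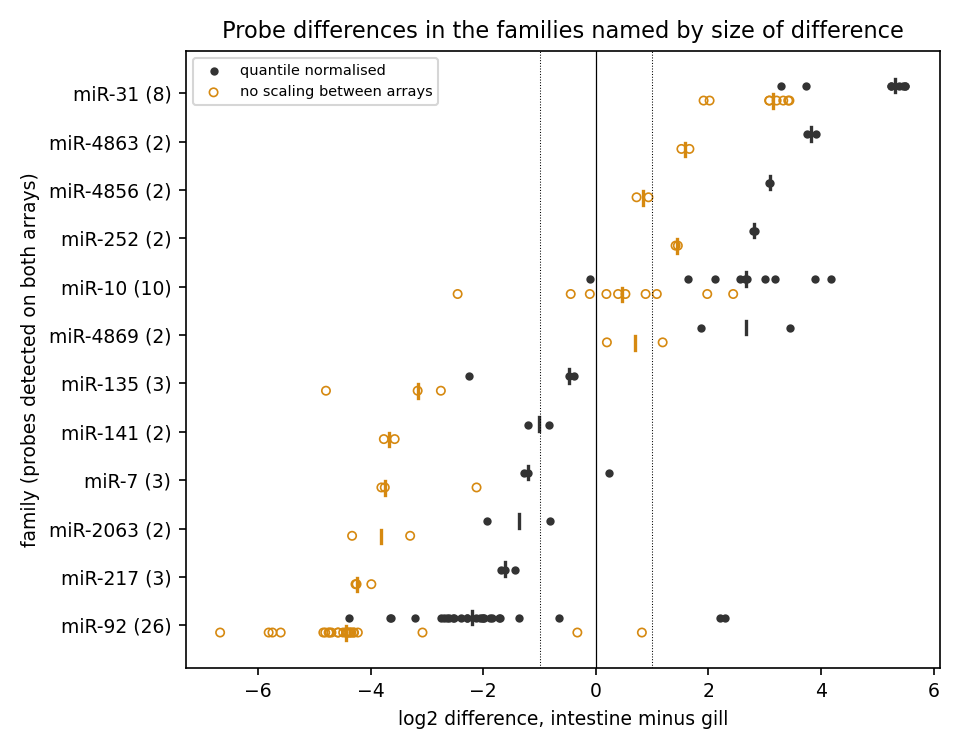
Log2 difference, intestine minus gill, of each probe detected on both arrays, for the families with at least 2 such probes and the highest or lowest medians; filled points are quantile-normalised, open points are unscaled, bars are medians and dotted lines mark 2-fold. All miR-31 points lie above 2-fold on both scales, whereas miR-10 spans -0.11 to 4.17 and miR-92 spans -4.37 to 2.29 after quantile normalisation.

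The largest group with lower signal in the intestine was miR-92. In vertebrates miR-92 is part of the growth-promoting miR-17-92 cluster, and its seed AUUGCAC is shared with miR-25. Of its 39 probes, 26 were detected in the intestine and 33 in the gill. Of the 26 on both arrays 23 were at least 2-fold lower in the intestine under every scaling, with a family median of -2.20 (-4.43 unscaled). The amphioxus target bfl-miR-92a had 2031 ± 340.3 in the intestine and 43290.4 ± 5890 in the gill, ranks 64 and 18 and a difference of -2.29. Another, bbe-miR-92c-3p, had 2129 ± 205 in the intestine and 41268 ± 2308 in the gill (-1.88). The brightest member in the gill, pma-miR-92a, had 1986 in the intestine and 46655 in the gill. The most different was the sea squirt target cin-miR-92c-3p, with 365 ± 45.5 in the intestine and 34817 ± 560 in the gill (-4.37), which differs from bbe-miR-92c-3p at 5 of 21 positions. For bfl-miR-92b-3p the difference was -3.63, but its intestinal spots read 384 and 1731 against 43848 and 44371 in the gill. Both spots were far below the gill spots. A hemichordate probe, sko-miR-92b, showed the same gap, with intestinal spots of 375 and 1946.

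The 3 exceptions within miR-92 were unlike the rest. The target bbe-miR-92d-3p, which has the common seed, had 491 ± 110 in the intestine and 3953 ± 553 in the gill, a difference of -0.65 (-3.08 unscaled). The 5p targets, which lack that seed, were higher after quantile normalisation. In cin-miR-92e-5p the density was 921 in the intestine and 1163 in the gill, a difference of 2.29 that was -0.33 unscaled. In bfl-miR-92d-5p it was 292 ± 201 in the intestine and 163 ± 8.70 in the gill (2.20, or 0.82 unscaled), and its intestinal spots were more than 2-fold apart.

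Probes of other family numbers carry the same seed. Among detected probes AUUGCAC was found in 30, named miR-92, miR-25, miR-2059, miR-2063 or miR-2076. Of the 26 on both arrays none was at least 2-fold higher and 23 were lower after quantile normalisation, with a median of -2.09, and the other 4 were detected in the gill only. Most of the 30 are miR-92 targets of closely similar sequence and are not independent of each other. Outside miR-92, dre-miR-25 had 157 ± 20.8 in the intestine, under the main threshold but above the median-based one, and 4257 ± 893 in the gill. It was at least 5.07-fold lower in the intestine. Such bounds set the normalised gill level against the higher of the probe's own intestine level and the lowest detected level on the intestine array. In bbe-miR-2059-5p the density was 342 ± 124 in the intestine and 3665 ± 201 in the gill (-1.14). In bfl-miR-2063 it was 405 ± 187 in the intestine and 3986 ± 2518 in the gill (-0.81), with gill spots more than 2-fold apart. The exception was bbe-miR-2076-5p, which ranked high in both tissues. It had 14150 ± 1623 in the intestine and 36598 ± 7152 in the gill, with ranks 19 and 28 and a difference of 0.42 (-1.36 unscaled). A shared seed therefore did not fix the size of the difference.

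The other arm of miR-2063, bbe-miR-2063-3p, has a different seed and had 235 ± 70.7 in the intestine and 4174 ± 210.1 in the gill (-1.93). The family median was -1.37 (-3.81 unscaled).

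Families known from the vertebrate pancreas were uneven. MiR-217, found with miR-216 in the mouse exocrine pancreas, was lower in the intestine in all 3 probes detected on both arrays under every scaling, with a median of -1.62 (-4.25 unscaled). Its amphioxus target bfl-miR-217 had 963 ± 18.8 in the intestine and 18140 ± 369 in the gill (-1.69), and cin-miR-217 was detected in the gill only, at 2287 against 128 in the intestine. MiR-216, by contrast, had no called probe among 5 on both arrays and a median of -0.31 (-3.04 unscaled). MiR-7, an endocrine and neuronal miRNA in vertebrates, had 646 ± 64.7 in the intestine and 8750 ± 353 in the gill for dre-miR-7a (-1.27), and xtr-miR-7 had a difference of -1.21. The opposite arm, bbe-miR-7-3p, had 322 in the intestine and 1319 in the gill and a difference of 0.24 (-2.12 unscaled). MiR-375, an islet miRNA in the mouse, was dim on both arrays, with at most 303 in the intestine and 352 in the gill. All 7 of its probes on both arrays were called higher after quantile normalisation (median 1.53), and the median was -0.16 unscaled. Levels of miR-375 were thus close to equal on the raw scale, and those of the other 3 families were far lower in the intestine.

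MiR-141 and miR-200 repress epithelial-to-mesenchymal transition in vertebrate epithelia. The zebrafish target dre-miR-141 had 1136 ± 14.9 in the intestine and 13281 ± 393 in the gill (-0.82), and cin-miR-141-3p had 707 ± 23.5 in the intestine and 9340 ± 336 in the gill (-1.20). The median of the family was -1.01 (-3.67 unscaled). With the same seed, AACACUG, bbe-miR-200c-3p had 1345 ± 172 in the intestine and 18044 ± 7.06 in the gill (-1.23). The target bfl-miR-200c, whose 21 bases are the first 21 of it, had 1856 ± 439 in the intestine and 15614 ± 2190 in the gill and was not called (-0.27). Of the 5 detected probes with that seed 3 were at least 2-fold lower. Of the 7 shared probes with the other miR-200 seed, AAUACUG, none was called, with a median of 0 after quantile normalisation. They were not equal on the raw scale. Among them bbe-miR-200a-5p had 1637 in the intestine and 9526 in the gill (0.11). Over the 10 shared miR-200 probes of both seeds the median was -0.19, or -2.97 unscaled. Another 3 probes with the seed AAUACUG, of miR-200 and miR-429, were detected in the gill only. MiR-135 had a median of -0.47 (-3.16 unscaled) over 3 probes. Its only called probe, bbe-miR-135a-5p (-2.26), had intestinal spots of 193 and 3203 against 19039 and 21959 in the gill. The 21 bases of that target are contained in bfl-miR-135a, which had 3292 ± 11.8 in the intestine and 22050 ± 381 in the gill (-0.38). The call for bbe-miR-135a-5p therefore rested on 1 spot.

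Among amphioxus families of lower signal, bfl-miR-4874-3p had 243 ± 18.0 in the intestine and 8112 ± 129 in the gill (-2.70), and bfl-miR-2056 had 307 ± 63.5 in the intestine and 6360 ± 863 in the gill (-1.83). In bfl-miR-4871-3p the density was 312 ± 104 in the intestine and 6246 ± 928 in the gill (-1.82), and in the sea squirt target cin-miR-4020b-5p it was 266 ± 6.65 in the intestine and 8689 ± 81.3 in the gill (-2.67). All were called under every scaling and lay within 1.5-fold of the intestine threshold. For bfl-miR-4866-5p the gill density was among the highest, rank 9 against rank 35 in the intestine. Its intestinal spots were 1145 and 13696, against 54240 and 45219 in the gill, so its difference of -2.05 had a spot SD of 2.56. It was brighter in the gill by either spot, but its size is not determined.

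**Figure D4:**
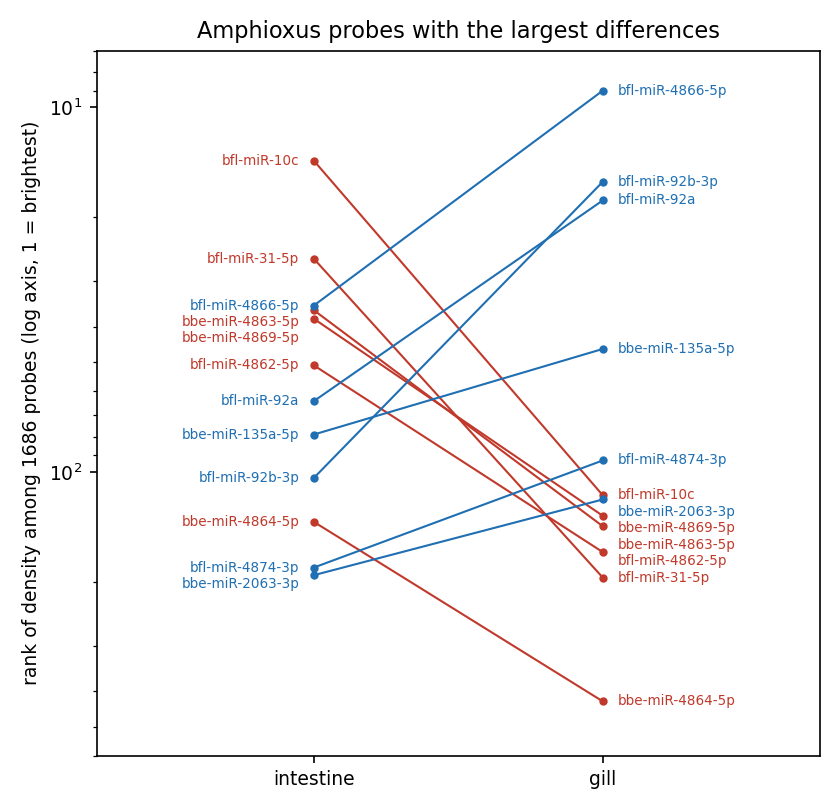
Rank of density among 1686 probes (log axis, 1 = brightest) in the intestine and the gill for the 6 amphioxus probes with the largest positive (red) and the 6 with the largest negative (blue) log2 difference. Red probes stand nearer the top in the intestine, as bfl-miR-31-5p at rank 26 in the intestine against 195 in the gill, and blue probes stand nearer the top in the gill, as bfl-miR-92b-3p at rank 104 in the intestine against 16 in the gill. Quantile normalisation works on ranks, so these directions follow from how the probes were chosen, and the figure shows only the sizes.

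The clearest one-sided signals belonged to miR-281, miR-184 and miR-2071, detected in the gill only. MiR-184 and miR-281 are old animal families, and miR-2071 was described in amphioxus. In bfl-miR-184-3p the density was 161 ± 12.7 in the intestine and 17167 ± 105 in the gill, and the probe was at least 20.4-fold lower in the intestine. The lowest bound among the alternative settings was 16.9-fold. Its intestinal value lay above the median-based threshold of 139, although below the main one of 220. The zebrafish target dre-miR-184, identical over 21 positions, gave 150 ± 8.65 in the intestine and 17562 ± 828 in the gill. In bfl-miR-281 the density was 116 ± 4.48 in the intestine, at the level of the blanks, and 12904 ± 826 in the gill, a bound of at least 14.7-fold. The hemichordate target sko-miR-281 had 111 ± 9.14 in the intestine and 17646 ± 184 in the gill, at least 21.7-fold.

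In bbe-miR-2071-5p the density was 109 ± 6.84 in the intestine and 12395 ± 286 in the gill, at least 13.9-fold lower in the intestine. The B. floridae probe bfl-miR-2071-3p, which contains all 20 bases of it, gave 109 ± 3.21 in the intestine and 12166 ± 331 in the gill. The arm names of these species are thus opposite for one sequence, and the paired target, bbe-miR-2071-3p within bfl-miR-2071-5p, was weaker, with 105 and 924 for the B. belcheri probe in the intestine and the gill. The next family by gill density, miR-1504, was seen through the tunicate target odi-miR-1504, with 158 ± 13.1 in the intestine and 6528 ± 166 in the gill. Over all gill-only probes 25 of 258 had a bound of at least 2-fold and 20 kept it in every setting. Of the 107 gill-only families, 45 had a probe whose gill density passed the intestine threshold, and 19 had one above 500.

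MiR-34, which with miR-449 supports the formation of multiciliated cells in mouse and frog, was split among its members. Of the 27 probes of these families 4 were detected in the intestine and 14 in the gill, and of the 10 gill-only probes 7 exceeded the intestine threshold with their gill density. Density was 197 ± 13.3 in the intestine and 3828 ± 415 in the gill for bbe-miR-34a-5p, at least 4.68-fold lower in the intestine. The intestinal density was under the main threshold but above the median-based one. For bfl-miR-34a, detected on both arrays, density was 298 ± 11.9 in the intestine and 3032 ± 207 in the gill (-1.16). With the same seed, bfl-miR-34b-5p had 3654 ± 99.3 in the intestine and 2153 ± 227 in the gill, a log2 difference of 3.25 (0.78 unscaled). It shares 14 of 23 positions with bfl-miR-34a. The opposite arm bbe-miR-34b-3p had 8551 ± 71.1 in the intestine and 11488 ± 354 in the gill (1.99, or -0.43 unscaled), and bbe-miR-34f-5p was not called (0.37). The amphioxus miR-34b and miR-34a targets thus lay on opposite sides of the difference after quantile normalisation. Only bfl-miR-34b-5p was denser in the intestine on the raw scale. The zebrafish target dre-miR-34b was dim and detected in the gill only, at 137 in the intestine and 180 in the gill.

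**Figure D5:**
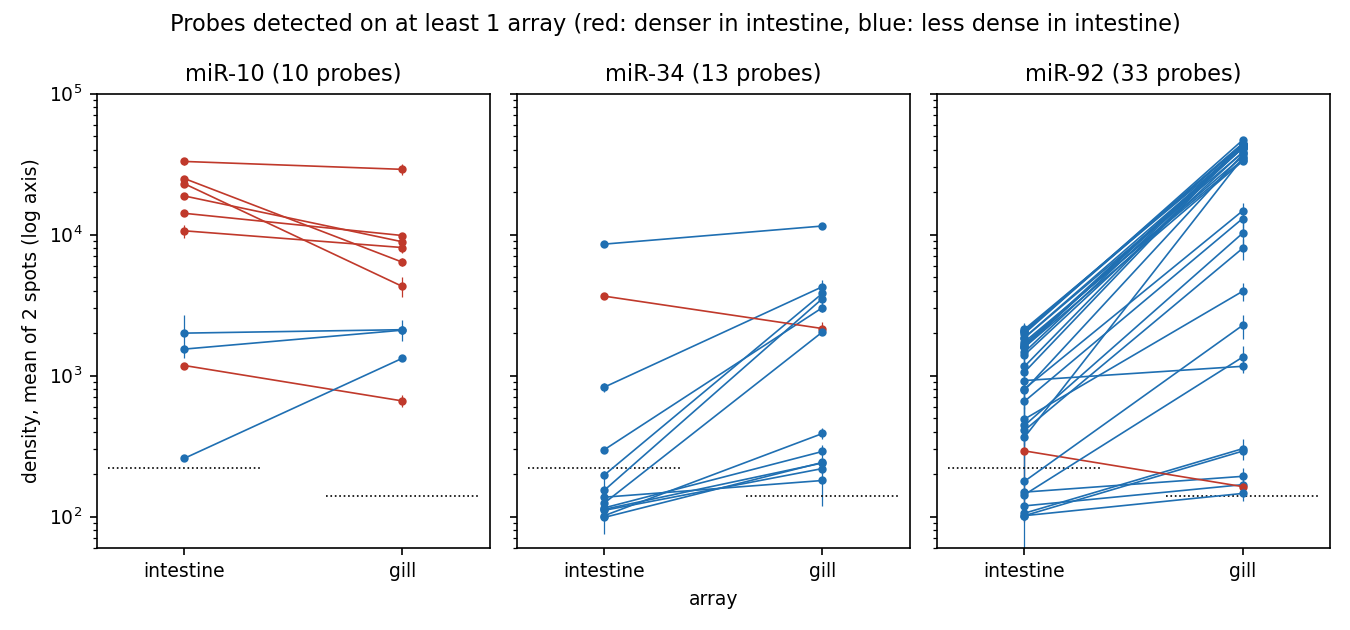
Density (log axis, points are means of 2 spots and bars their SD) of every probe of miR-10, miR-34 and miR-92 detected on at least 1 array, in the intestine (left) and the gill (right); dotted lines are the thresholds, and red marks probes denser in the intestine. In miR-10 bfl-miR-10c is denser in the intestine (22909 against 4281), in miR-34 bfl-miR-34b-5p is, and nearly all miR-92 lines climb to the gill.

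Many of the brightest families were common to both tissues. In the intestine the 10 families with the brightest probes were, in order, miR-2070, miR-100, miR-125, miR-10, let-7, miR-2072, miR-2076, miR-4857, miR-31 and miR-29. In the gill they were miR-125, let-7, miR-100, miR-4866, miR-92, miR-2076, miR-2070, miR-10, miR-29 and miR-2067. Brightness depends on the probe as well as on the RNA, so this order is one of signal and not of abundance. On the gill array 1 spot each of dre-miR-125a and dre-miR-125b was at the scanner's upper limit, so the gill values of these probes are lower limits, and 0 spots were at that limit on the intestine array. The gill spots of dre-miR-125c, at 64576 and 65390, lay just under that limit. The amphioxus probe bfl-miR-2070-5p was the brightest of all in the intestine, at 55591 ± 3030 against 33669 ± 593 in the gill (rank 33), and its log2 difference was 1.92 (0.72 unscaled). In bfl-miR-2072-5p the density was 15613 in the intestine and 12233 in the gill, with ranks 18 and 73. In bbe-miR-4857-5p it was 13902 in the intestine and 8211 in the gill, with ranks 21 and 92 (2.85). Of the 25 brightest probes 11 were common to both arrays, and of the 100 brightest 73 were. By the rank of its brightest probe, 48 of the 69 families detected on both arrays stood nearer the top in the intestine and 21 in the gill. With 201 probes detected in the intestine and 455 in the gill, a detected probe can take a lower place in the gill list, so no direction is read from this count or from the ranks of dim families. Besides miR-31, miR-252 and miR-4864, the largest gains of rank were those of miR-4870 (142 in the intestine against 385 in the gill) and miR-2058 (180 against 323). For miR-4864 the brightest probes were of different arms, bfl-miR-4864-5p in the intestine and bbe-miR-4864-3p in the gill. Of the 4 miR-2058 probes, all detected in the gill, only bfl-miR-2058-3p was detected in the intestine. The largest losses were those of miR-4874 (183 in the intestine against 93 in the gill), miR-4020 (175 against 89), miR-2056 (165 against 107), miR-4871 (163 against 108) and miR-217 (94 against 43).

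Let-7, miR-100 and miR-125, which share a genomic cluster in many bilaterians, and miR-98 were bright on both arrays. Of their 55 probes 25 were detected in the intestine and 42 in the gill, and of those on both arrays 6 were higher and none lower after quantile normalisation, with a median of 0.26 (-1.05 unscaled). Over all probes 11.9% were detected in the intestine and 27% in the gill, and 40.6% of the shared probes were higher and 21.8% lower. None of the cluster's probes was called under every scaling. Gill signal of dre-miR-125a, dre-miR-125b and dre-miR-125c was at or near the scanner's upper limit, so lower signal in the intestine may be understated for these. Density was 48359 ± 1597 in the intestine and 50831 ± 1887 in the gill for bfl-miR-100-5p (0.51, or -0.07 unscaled). Its other arm, bfl-miR-100-3p, had 1780 ± 105 in the intestine and 1698 ± 135 in the gill (2.68, or 0.08 unscaled). The raw ratios of these arms were about the same, while the quantile-normalised difference was larger for the dimmer arm. MiR-210, which responds to low oxygen in mammals, had 5 probes on both arrays, 4 of them higher after quantile normalisation (median 1.46), and a median of -1.05 unscaled.

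Families that mark cell types in vertebrates gave limited information on the tissues. None of the 9 probes of miR-192, miR-194 and miR-215, gut epithelial miRNAs of vertebrates, was detected on either array, with at most 105 in the intestine and 132 in the gill. The 2 probes of the liver miRNA miR-122 and the 6 of the endothelial miR-126 were likewise undetected. Of 23 probes of blood and immune families 1 was detected, dre-miR-155, at 140 in the gill and 127 in the intestine. For the muscle families 4 of 40 probes were detected in the intestine and 16 in the gill, beside 11.9% and 27% of all probes. Of the 12 gill-only ones 2 exceeded the intestine threshold with their gill density. All 4 on both arrays were miR-1, the muscle miRNA of bilaterians, called higher after quantile normalisation with a median of 2.23 and about equal unscaled (0.00). The brightest, pma-miR-1c-3p, had 726 ± 30.3 in the intestine and 748 ± 11.9 in the gill. MiR-133, its partner in vertebrate muscle, was detected in the gill only, by 7 of 17 probes and with at most 168 there.

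Neural families were detected by 2 of 65 probes in the intestine and 18 in the gill, and of the 16 gill-only ones 8 exceeded the intestine threshold with their gill density. In dre-miR-9-5p the density was 177 ± 40.1 in the intestine and 1882 ± 149 in the gill, and in bfl-miR-137 it was 191 ± 35.9 in the intestine and 920 ± 136 in the gill. Both intestinal values lay above the median-based threshold. The 2 neural probes on both arrays did not favour the gill after quantile normalisation. They were csa-miR-219, with 225 in the intestine and 206 in the gill (1.61, or 0.23 unscaled), and sko-miR-9 (0.02, or -2.21 unscaled). The spots of sko-miR-9 disagreed, with 330 and 161 in the intestine and 1562 and 631 in the gill. The sensory families miR-183, miR-96 and miR-182 were detected by none of 29 probes in the intestine and by 10 in the gill. For bbe-miR-183-5p the values were 111 ± 1.90 in the intestine and 443 ± 22.1 in the gill. The gill density of 5 of these 10 exceeded the intestine threshold. Detection in the gill only applied to 16 of the 65 neural and 10 of the 29 sensory probes, beside 15.3% of all probes. Their part in the other differences was not tested.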

How the data were processed

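Small RNA of pooled tissue was tailed, tagged and stained with Cy3, per the labels' protocols. Each spot's median density in the deposited scanner files is an intensity on a linear scale with no background subtracted, per the file headers. Commas that group digits were removed from these values. The deposited series table holds processed intensity values of the same arrays, whose background correction and scaling are not given in the sources used here. It served as an alternative. The number of sample columns without a mapping was 0.

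Densities were background-corrected by normexp with an offset of 50, converted to log2 and averaged over the 2 spots of a probe. The intestine and gill arrays were then quantile-normalised with limma 3.58.1 in R 4.3.3. The background fit included control spots, which were then left out. Detection needed a mean density above the blank mean plus 3 SDs. Python 3.11.15, numpy 2.4.6, pandas 2.3.3 and matplotlib 3.10.9 were used for the rest. The steps were also run on simulated data in which as many probes were raised as lowered. The measured arrays were less balanced, so that run does not show which scaling suits them. Before normalisation between arrays, both arrays' log2 spot SDs were combined in quadrature to give the spot SD of a difference.

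Named were, of families with at least 2 probes on both arrays, the 6 highest and 6 lowest medians, the 4 brightest families detected on 1 array alone per direction, and the 10 brightest families per array. Of amphioxus probes the 6 highest and 6 lowest differences and the 3 largest bounds per direction were named, and of families the 5 largest gains and losses of rank. Other probes named are members of these families or of the lists, or were chosen after their values were seen. The members and lists were chosen with earlier results of these data known. No test was made, since each tissue had 1 array. The hepatic caecum array, whose grid was turned by 180 degrees, entered only the quantile alternative over 3 arrays. Sequences are the target sequences in the deposited files, and no genome position is given.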

Additional observations from a re-analysis of the deposited data

How the results depend on the processing

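No paired analysis was possible because each tissue had 1 array, and no replicate could be left out. Probes at least 2-fold higher and lower in the intestine (80 and 43 after quantile normalisation, with 33 and 11 families) numbered 19 and 122 (6 and 41 families) without scaling, 27 and 111 (10 and 36) centred on spike-ins, and 29 and 105 (12 and 34) centred on 5S rRNA. Centred on the median of shared probes, 60 were higher and 70 lower, with 19 families lower. Quantile normalisation over 3 arrays, cyclic loess, the 75th percentile, either background alternative, either spot alone, the deposited table and the median-based threshold each stayed within 1.5 times of these counts of calls. The spot-agreement filter, added after seeing the data, did too. With all probes kept, 108 were lower, in 19 families. With a density over 500 on at least 1 array, 82 were lower and 21 families were higher and 26 lower. Amphioxus probes alone gave 34 higher and 14 lower, and 82 detected in the intestine and 161 in the gill. The median-based threshold detected 321 in the intestine, and a density over 500 left 230 in the gill. Of 50 families with a median above 0 after quantile normalisation, 32 were below 0 without scaling, 15 of them among those called at least 2-fold higher, and no family changed the other way. Among the families followed under every alternative, which were those of the lists and those named by difference or rank, called medians changed sign for miR-34 (-1.41 unscaled, -1.13 by spike-ins, -0.94 by 5S rRNA), miR-210 (-1.05, -0.77 and -0.58 in that order), miR-71 (-1.58, -1.30 and -1.11), miR-375 (-0.16 unscaled) and miR-100 (-0.12 unscaled), and for miR-7 with amphioxus probes only (0.24), which leaves bbe-miR-7-3p alone. The cause was not tested. Of 726 values over 59 named results under the alternatives, 302 stayed within 1 spot SD, 412 moved further without a change of sign of a called value, and 12 changed sign. Signal near the thresholds limits dim families such as miR-252, miR-375, miR-4864, miR-4870 and miR-2058.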

Other observations

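Several 5p targets of amphioxus families that were higher in the intestine resembled each other after the seed, a feature noticed once their values were known. The motif UCNGCNCC, searched in the given strand of the targets, occurred in 12 of 1686 probes (0.712%). Of these, 5 were detected on both arrays, namely those of miR-4856a, miR-4856b, miR-4857, miR-4862 and miR-4869, and all 5 were at least 2-fold higher in the intestine after quantile normalisation. Unscaled, only bfl-miR-4862-5p and bbe-miR-4869-5p reached 2-fold, at 1.19 each. The motif was drawn from these probes, so the count is a description. Another 6 were undetected and bbe-miR-2060c-3p was detected in the gill only, at 193 in the intestine and 360.0 in the gill. The targets bbe-miR-4857-5p and bbe-miR-4869-5p share the seed CGAUGUU and 15 of 23 positions, and bfl-miR-4862-5p and bbe-miR-4856a-5p share 16 of 22 positions. Cross-hybridisation among them was not tested.

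Of 42 amphioxus precursor names with at least 1 arm detected, 4 had both arms detected on both arrays. These were bfl-miR-100, bfl-miR-29a, bfl-miR-4859 and bfl-miR-71. Their arms had differences of one sign after quantile normalisation, with a median gap of 0.95 and a largest gap of 2.17 on the log2 scale. Unscaled, the arms of bfl-miR-100 had -0.07 and 0.08, and both arms of the other 3 were below 0. The requirement of detection on both arrays left out names with opposite arms. In bfl-miR-4864 the 5p arm was detected in the intestine only and the 3p arm in the gill only. No agreement of arms in general is therefore read from these names. For 31 pairs of shared probes in which one target contains the other, the median gap was 0.24 and 3 pairs differed by more than 1. These were bbe-miR-135a-5p with bfl-miR-135a, sko-miR-92b with xtr-miR-92a, and bfl-miR-71-5p with spu-miR-71.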
